A study of Sus scrofa with 6 samples.

Results

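A set of 9 genes of type 3 immunity was followed through the neonatal ileum of the pig, namely *IL22*, *IL17A*, *IL17F*, *LTB*, *TAC3*, *IL23R*, *IL1R1*, *NCR2* and *KLRB1*. The 9 genes were picked by symbol, with earlier results of these data known, from the 20648 genes counted, and all 9 were found. Single-cell RNA sequencing (scRNA-seq) covered 6 libraries of male piglets, 1 each at day 0, 1, 3, 7, 14 and 21 after birth, without any treatment or difference in genotype. Each captured transcript was counted once by its unique molecular identifier (UMI), and the files hold these counts as they were, before any filter on barcodes. With 1 library per age, in which cells of several piglets may be pooled, no difference between ages could be tested.

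Type 3 immunity is the arm of immunity that guards the gut lining against bacteria and fungi outside cells. Innate lymphoid cells of group 3 and Th17 and γδ T cells carry it: myeloid cells release IL-23 and IL-1, which act on these cells through receptors, and the cells answer with IL-22 and IL-17. IL-22 and IL-17 act on epithelial cells, which then make antimicrobial proteins and draw in neutrophils, while lymphotoxin takes part in the building of lymphoid tissue.

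The barcodes with at least 1000 UMIs and 500 genes were taken as cells, 76099 in all, with a median of 3693 to 4560 UMIs per cell over the libraries. Classes, 3 in all, were cut from them by gate genes. T cells held at least 2 UMIs of *CD3E* and *CD3G* (5615 cells), and B cells at least 2 UMIs of *MS4A1* and *PAX5* (47055 cells). CD3-negative lymphoid cells held *IL7R* or *KIT*, no UMI of these 4 genes and fewer than 5 UMIs of epithelial genes (2269 cells). The CD3-negative class held 603, 715, 752, 98, 94 and 7 cells on days 0, 1, 3, 7, 14 and 21. In the same order there were 2002, 1764, 423, 593, 522 and 311 T cells, while B cells numbered 1570 on day 0 and 14029 on day 14 and were 89.6% of all cells on day 21. Between 42 and 118 cells per library passed both the T and the B gate and were counted in both, 83 of the 311 T cells on day 21 among them. Between 1.65% and 1.90% of the cells of a library carried a barcode that also marked a cell of another library.

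The classes were checked against marker genes that the gates did not use. The 10 measured T cell markers summed to 5.42 to 14.7 UMIs per 10000 in T cells and to 1.15 to 2.92 in the CD3-negative class up to day 14, where *CD3D* was at most 0.00597 and had no UMI from day 3 on. Neither class was pure. In T cells the epithelial list was at 9.60 on day 0, above the T cell list (5.42), and the B cell list at 9.13 on day 14 and 7.97 on day 21. The 9 myeloid markers summed to 14.6, 32.2, 11.5, 9.12 and 18.2 UMIs per 10000 in the CD3-negative class on days 0, 1, 3, 7 and 14. In T cells they summed to 0.345 to 3.93. Of this list, *TYROBP* made up 5.85, 6.51, 6.65 and 6.85 in the CD3-negative class on days 0, 3, 7 and 14. *TYROBP* also encodes the signalling partner of NKp44 in innate lymphocytes. *FCN1* and *S100A12* had no UMI on days 3 and 7. All genes of the list were counted on day 1, led by *CST3* at 14.5, and all but *C1QA* on day 14. Endothelial markers reached 3.98 on day 0 and 7.37 on day 1 in this class, and 0.138 to 0.609 on days 3, 7 and 14. In the cells with *KIT* but without *IL7R* the endothelial list reached 21.9 on day 1 and the myeloid list 43.9 on day 3. In those with *IL7R* but without *KIT* the myeloid list reached 48.4 on day 1, when it was at 36.4 with *KIT* alone. Cells with both genes, with *IL7R* alone and with *KIT* alone numbered 262, 222 and 119 on day 0. On day 1 they numbered 215, 314 and 186, so most cells of the class were then not double-positive. Cells with both *IL7R* and *KIT* had a myeloid level of 6.51 to 9.75 and an endothelial level of at most 0.629 up to day 14. For the members, some results are therefore also given for these double-positive cells.

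The level of a gene is its UMIs per 10000 UMIs summed over all cells of the class in a library, and the plot of levels by age shows it for every gene with its 95% Poisson interval. These intervals hold the error of counting alone and say nothing of how piglets vary. Where 6 levels follow each other they are in order of age, for days 0, 1, 3, 7, 14 and 21. Because UMIs spill from broken cells into droplets, the level in barcodes of 100 UMIs or fewer is given beside it as that of free RNA.

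**Figure D1:**
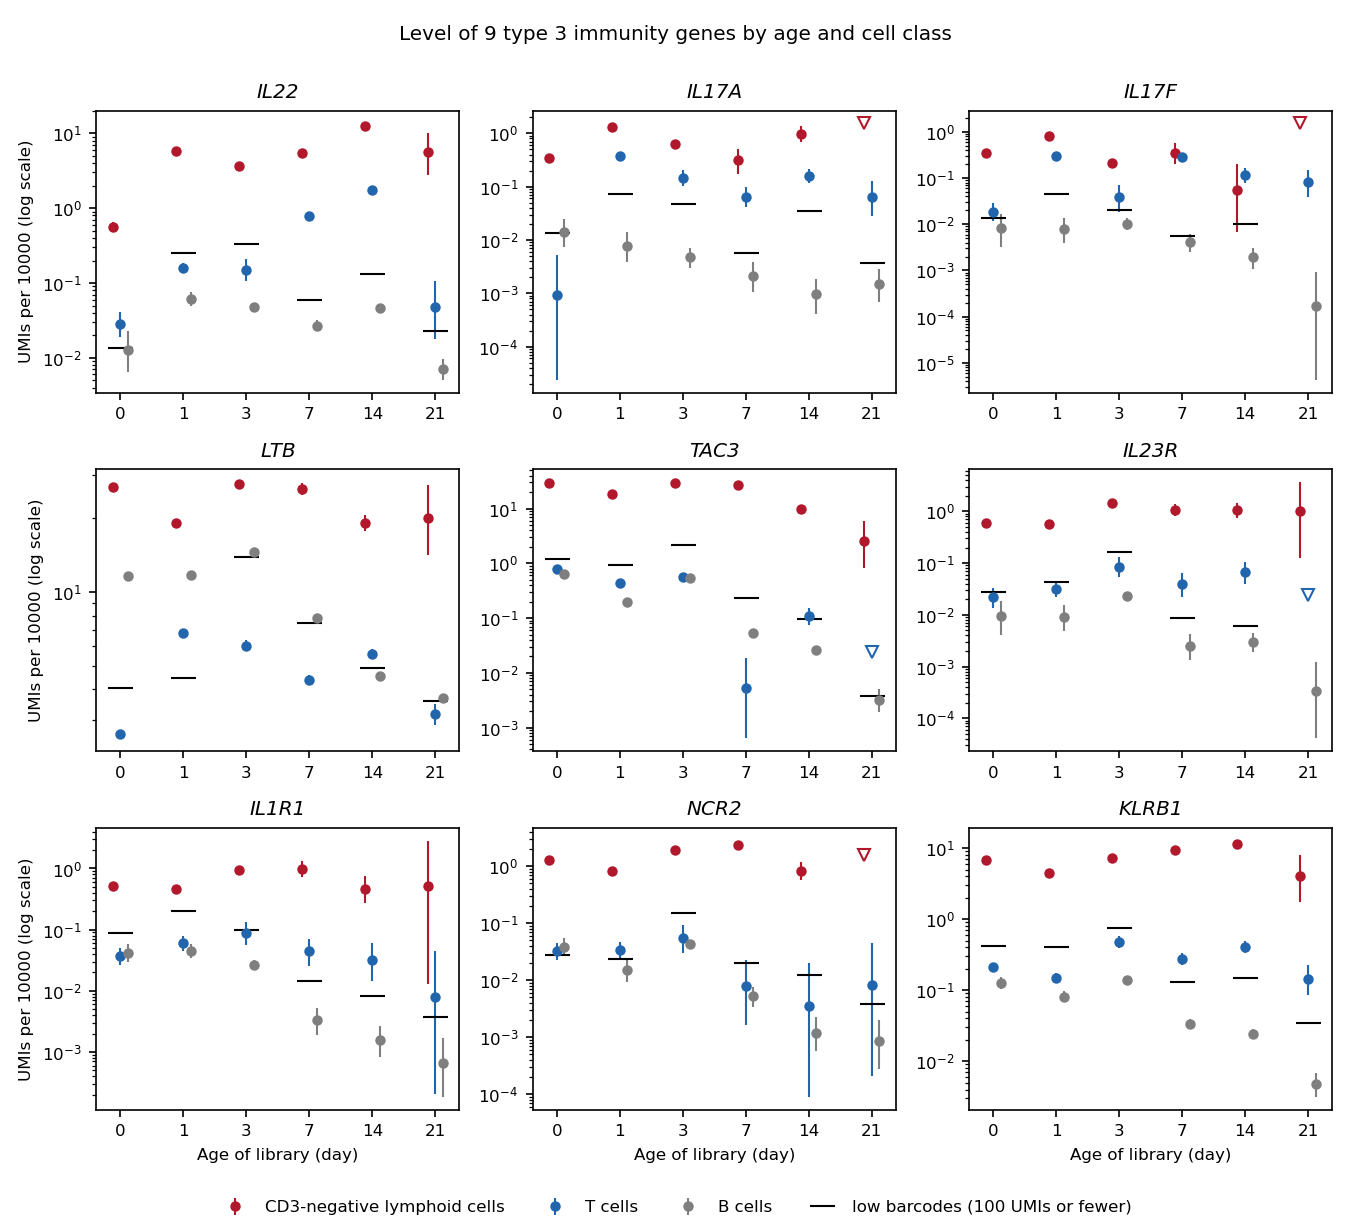
Level (UMIs per 10000, log axis) of each of the 9 genes by age of the library (day) in CD3-negative lymphoid cells (red), T cells (blue) and B cells (grey). Bars are 95% Poisson intervals, black dashes the level in barcodes of 100 UMIs or fewer, and open triangles the level that 3 UMIs would give where none was counted. Red points lie above blue and grey ones for every gene from day 0 to day 7, and *IL22* in red goes from 0.564 on day 0 to 5.85 on day 1.

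*IL22* encodes the cytokine that acts on the epithelium and not on blood cells. Its gene lies on chromosome 5 from 32599522 to 32604507 (Sscrofa11.1, as for all positions here). In the CD3-negative class its level was 0.564, 5.85, 3.72, 5.38, 12.4 and 5.62. The day 0 library stood lowest and the day 14 library highest, with the 5 later libraries all outside the interval of day 0 (0.487 to 0.651). In double-positive cells the level was 0.880, 10.9, 3.73, 3.29 and 6.74 on days 0, 1, 3, 7 and 14, highest on day 1. A single cell held 140 of the 259 UMIs of the CD3-negative class on day 7 and 10 of 11 on day 21. T cells had 0.0283, 0.159, 0.151, 0.779, 1.77 and 0.0484, and B cells 0.00707 to 0.0612. Free RNA was at 0.0137, 0.251 and 0.337 on days 0, 1 and 3, so T cells lay below it on days 1 and 3 and above it by 13.0 times on day 7 and 13.2 times on day 14. The share of CD3-negative cells with a UMI of *IL22* was 7.96%, 24.8%, 27.7%, 17.3% and 39.4% on days 0, 1, 3, 7 and 14, against 0.231% to 1.38% of B cells, which should lack it. Median depths were 3435 to 6787 UMIs per CD3-negative cell and 3731 to 4823 per B cell. Thinned to 1000 UMIs per cell, the CD3-negative shares were 2.99%, 14.4%, 18.4%, 10.2% and 28.7% for the same days.

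*IL17A* and *IL17F* encode 2 related cytokines that act on one receptor pair and induce chemokines for neutrophils. They are neighbours on chromosome 7, with *IL17A* from 46013584 to 46017161, *IL17F* from 46058371 to 46066039 and 41209 bases between them. *IL17A* in CD3-negative cells was at 0.34, 1.31, 0.629, 0.312, 0.99 and 0. For *IL17F* the same cells gave 0.349, 0.836, 0.214, 0.353, 0.055 and 0. Both were highest in the day 1 library, and on day 14 *IL17F* was down to 2 UMIs. T cells held *IL17A* at 0.000944, 0.372, 0.147, 0.0653, 0.158 and 0.0646. Their *IL17F* was 0.0189, 0.297, 0.0387, 0.29, 0.116 and 0.0807.

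The T cell values for the IL-17 genes rested on very few cells. On day 1 a single T cell held 346 of the 359 *IL17A* UMIs of its class and 217 of the 287 *IL17F* UMIs. This cell had 9120 UMIs in all, 5 of *CD3E*, 1 of *PAX5* and none of *IL7R*, *KIT*, *TAC3*, *NCR2* or *KLRB1*. On day 3 a T cell with 37 of 38 *IL17A* UMIs also held 6 of 10 *IL17F* UMIs. On day 0 the only *IL17A* UMI, and on day 21 all 8, lay in cells that also passed the B gate. Without the 5 cells with the most UMIs, *IL17A* in T cells was at 0.00263 on day 7 and at 0.00711 on day 14, where 6 T cells each had a UMI. In the CD3-negative class the cell with the most held 28.9%, 28.2%, 9.78%, 60% and 52.8% of the *IL17A* UMIs on days 0, 1, 3, 7 and 14, against 32.0% and 55.6% in T cells on the last 2 of these days. On days 0, 1 and 3, 33, 80 and 62 CD3-negative cells had at least 1 UMI of *IL17A*, against 1, 5 and 2 T cells, while on days 7 and 14 there were 4 CD3-negative and 6 T cells each.

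**Figure D2:**
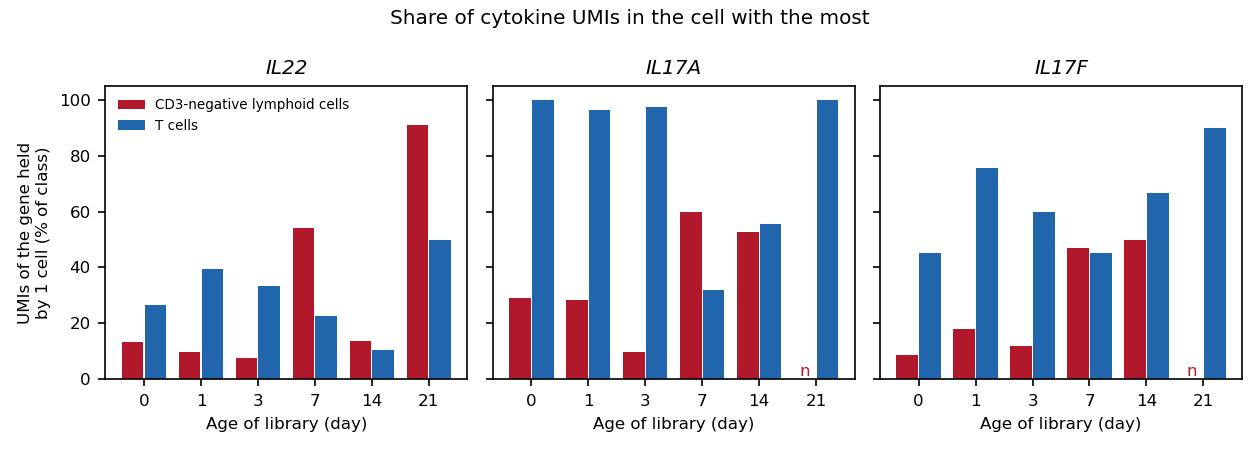
Share (%) of the UMIs of *IL22*, *IL17A* and *IL17F* in a class that the 1 cell with the most of them held, by age of the library (day), for CD3-negative lymphoid cells (red) and T cells (blue). The letter n marks a class with no UMI of the gene. For *IL17A* in T cells the share is 96.4% on day 1 and 97.4% on day 3, against 28.2% and 9.78% in CD3-negative lymphoid cells, while on day 7 it is 32.0% against 60% and on day 14 55.6% against 52.8%.

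*LTB*, on chromosome 7 from 23704842 to 23707036, encodes lymphotoxin β, a membrane-bound partner of lymphotoxin α. Its level was 26.8, 19.1, 27.5, 26.3, 19.1 and 19.9 in the CD3-negative class. B cells had 11.5, 11.7, 14.6, 7.78, 4.55 and 3.67. T cells had 2.62, 6.8, 6.02, 4.36, 5.57 and 3.17. From day 3 to day 21 the B cell level was lower in each later library, from 14.6 to 3.67, and so was that of free RNA, from 13.9 on day 3 to 3.60 on day 21. B cells were at 2.84 and 2.63 times the level of free RNA on days 0 and 1 and at 0.934 to 1.05 times from day 3 on. They held 32.2% and 35.3% of the *LTB* UMIs in cells on days 0 and 1 and 72.5% to 93.9% from day 3 on. How much of the free RNA came from B cells was not tested. T cells lay below it on days 0, 3, 7 and 21, and at 1.52 and 1.14 times its level on days 1 and 14. The CD3-negative level lay between 19.1 and 27.5. *LTB* was counted in 68.7% to 93.1% of the CD3-negative cells up to day 14 and in 60.1% to 93.9% of B cells.

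*TAC3* encodes the precursor of neurokinin B, a tachykinin peptide known from neurons, and lies on chromosome 5 from 22324927 to 22336464. In the CD3-negative class its level was 29.98, 18.6, 28.9, 26.5, 9.66 and 2.56. Days 14 and 21 were low and the other 4 libraries did not overlap with them. A UMI of *TAC3* was found in 59.5%, 51.6%, 83.2%, 67.3% and 46.8% of these cells on days 0, 1, 3, 7 and 14. T cells were at 0.789, 0.429, 0.557, 0.00523, 0.109 and 0. Free RNA held 1.22, 0.923, 2.13 and 0.237 on days 0, 1, 3 and 7, above the T cell level on each of these 4 days, and B cells also stayed below it in all 6 libraries. The T cell UMIs of *TAC3* were uneven among cells: 1 cell held 98 of 836 on day 0, 36 of 415 on day 1 and 42 of 144 on day 3, out of 22520, 11447 and 13836 UMIs of each cell. On day 14 T cells were at 0.109, against 0.0974 for free RNA, and those outside the B gate at 0.195. Cells outside the 3 classes with at least 5 UMIs of the myeloid list, which includes *TYROBP*, held *TAC3* at 3.71 on day 3, 3.29 on day 7 and 0.738 on day 14, above free RNA. On days 0 and 1 such cells were at 0.324 and 0.358, below free RNA, and on day 21 they had no UMI of it. On day 21, 19 of the 24 *TAC3* UMIs in cells lay in B cells. *TACR3*, its receptor, had no UMI in T or CD3-negative cells and 1 UMI in B cells.

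*IL23R* and *IL1R1* encode receptor chains for IL-23 and IL-1. *IL23R*, on chromosome 6 from 145337765 to 145401909, was at 0.594, 0.581, 1.47, 1.08, 1.05 and 1.02 in the CD3-negative class. T cells gave 0.0217, 0.0321, 0.0852, 0.0392, 0.0668 and 0, below free RNA on days 0, 1 and 3. On day 7, T cells had 4.58 times and on day 14 11.0 times the *IL23R* level of free RNA, from 15 and 19 UMIs. *IL1R1*, on chromosome 3 from 52192912 to 52334734, was at 0.511, 0.47, 0.94, 0.998, 0.468 and 0.511 in the CD3-negative class and at 0.0368, 0.06, 0.089, 0.0444, 0.0317 and 0.00807 in T cells. Most *IL1R1* UMIs of days 0 and 1, 68.9% and 76.8% of those in cells, lay outside the 3 classes. Among cells outside the 3 classes with at least 5 UMIs of the stromal list, its level was 0.235, 0.95 and 0.608 on days 0, 1 and 3, against free RNA of 0.0890, 0.202 and 0.0986. They held 48 and 228 UMIs on days 0 and 1, where a cell can pass for more than 1 of the lists named here. Cells with at least 5 UMIs of the epithelial list held 404 and 820, at levels of 0.101 and 0.394, and those with the endothelial list were at 0.410 and 0.540. Cells with the myeloid list held 162 and 522 UMIs, at 0.0913 and 0.302.

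*NCR2* and *KLRB1* encode receptors on the surface of innate lymphocytes, an activating receptor (NKp44) and a lectin-like receptor (CD161). *NCR2* lies on chromosome 7 from 36545752 to 36553129. CD3-negative cells had 1.27, 0.803, 1.87, 2.31, 0.825 and 0 for it, and no T cell library exceeded 0.0542. *KLRB1*, on chromosome 5 from 62244787 to 62257691, was at 6.9, 4.47, 7.27, 9.46, 11.6 and 4.09 in the CD3-negative class, with the day 14 library highest. Its T cell level was 0.214, 0.148, 0.48, 0.277, 0.408 and 0.145, below free RNA on days 0, 1 and 3 and 2.11, 2.76 and 4.27 times as high on days 7, 14 and 21.

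The CD3-negative class was small, yet it held over 50% of the UMIs of 7 of the members on days 0 and 1. On day 0 it made up 5.56% of cells and held 72.1% of the *IL22*, 82.0% of the *IL17A*, 67.6% of the *IL17F*, 79.6% of the *TAC3*, 75.4% of the *IL23R*, 80.3% of the *NCR2* and 75.9% of the *KLRB1* UMIs counted in cells. It held 29.4% of the *LTB* and 21.8% of the *IL1R1* UMIs. By day 14 the class was 0.589% of cells and held 63.8% of the *NCR2* UMIs, 48.1% of *TAC3* and 45.6% of *KLRB1*. For the cytokines, of 1368 *IL22* UMIs in cells on day 14, T cells held 503 (36.8%), 420 of them outside the B gate, and the CD3-negative class 450 (32.9%). T cells held 50.0% of 90 *IL17A* UMIs, against 40.0% in the CD3-negative class, and 67.3% of 49 *IL17F* UMIs, against 4.08%. A single T cell held 25 of the 45 *IL17A* and 22 of the 33 *IL17F* UMIs of its class. Cells in both the T and the B class count in each, so these shares can sum to over 100%.

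Whether the classes differed was tested across the libraries, with UMIs summed per class and library and the library as a block, by the quasi-likelihood test of edgeR over 11778 genes. The 7 CD3-negative cells of day 21 were left out of this fit. CD3-negative lymphoid cells were higher than T cells in 8 of the 9 members and lower in none. Over all genes tested, 13.3% were called higher and 11.3% lower. The members were picked with earlier results of these data known, so the counts here and below do not test the set. The median log2 difference was 3.70 over the members and -0.04 over all genes. *TAC3* differed by 6.51 ± 0.71 (log2, SE, adjusted p = 5.2e-05), *NCR2* by 5.75 ± 0.62 (adjusted p = 4.88e-05) and *KLRB1* by 4.63 ± 0.55 (adjusted p = 9.63e-05). *IL23R* differed by 4.34 ± 0.40 (adjusted p = 1.61e-05) and *IL1R1* by 3.70 ± 0.66 (adjusted p = 0.0015). Among the cytokines, *IL22* differed by 3.67 ± 0.49 (adjusted p = 0.000219) and *LTB* by 2.17 ± 0.27 (adjusted p = 0.000143). These 7 genes were higher in 5 of 5 libraries. *IL17A* differed by 2.54 ± 0.67 (adjusted p = 0.0146) and was also higher in 5 of 5 libraries, but its call was lost without the day 1 library (2.82, adjusted p = 0.0524) and without the block (2.34, adjusted p = 0.0905). For *IL17F* the difference of 1.32 ± 0.67 did not pass (adjusted p = 0.173). It was higher in 4 of 5 libraries and lower on day 14.

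**Figure D3:**
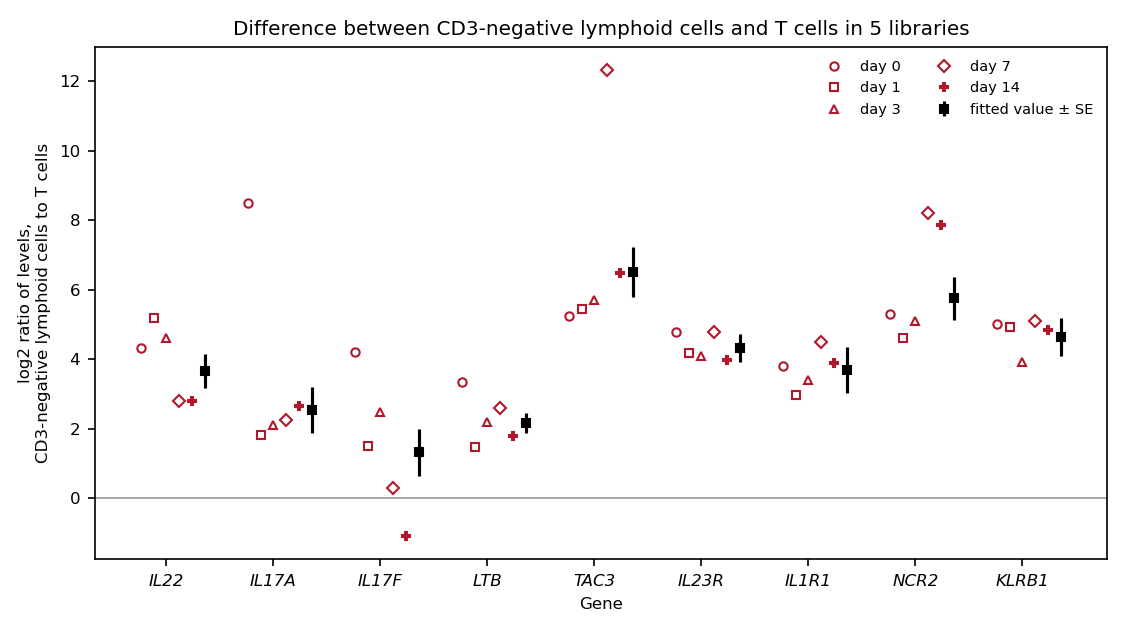
Difference between CD3-negative lymphoid cells and T cells for each of the 9 genes, as the log2 ratio of levels in each of 5 libraries (red symbols, 1 per age) and as the fitted log2 difference with its SE (black). All red symbols lie above 0 except *IL17F* on day 14, and the fitted values run from 1.32 for *IL17F* to 6.51 for *TAC3*.

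With the CD3-negative class limited to cells with both *IL7R* and *KIT*, the same 8 members were called higher than in T cells, and the log2 differences ran from 2.56 for *LTB* to 7.02 for *TAC3* (*IL17A* 2.81, adjusted p = 0.00583, and *IL17F* 1.85, adjusted p = 0.065). This gate was added after seeing the data. Within the CD3-negative class on day 0, *TAC3* was at 45.02 in double-positive cells, at 25.01 in those with *IL7R* alone and at 1.17 in those with *KIT* alone. *NCR2* was at 1.94, 1.05 and 0.0140 in the same groups. Cells with *KIT* alone had no UMI of *IL22*, *IL17A* or *IL17F* on day 0, and 206, 212 and 86 UMIs on day 1, of which 1 cell held 143, 202 and 82. On day 14, 19 of the 36 *IL17A* UMIs of the class lay in 1 cell with *IL7R* alone. On day 14 *IL22* was at 24.3 with *IL7R* alone and at 6.74 with both genes, from 35 and 43 cells, while on day 7 the 160 UMIs of the cells with *IL7R* alone were for the most part those of 1 cell with 140.

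All 9 members were called higher in CD3-negative lymphoid cells than in B cells, where 23.2% of all genes tested were called higher and 24.1% lower. The log2 differences ran from 1.27 ± 0.26 for *LTB* (adjusted p = 0.00161) to 7.37 ± 0.81 for *IL17A* (adjusted p = 1.42e-05), each in 5 of 5 libraries. Between T and B cells the members split. In 5 of them the level was higher in T cells, where 14.7% of all genes were called higher. These were *IL17A* (log2 difference 4.83 ± 0.78), *IL17F* (4.58 ± 0.71), *IL22* (3.09 ± 0.54), *IL23R* (2.57 ± 0.45) and *KLRB1* (2.14 ± 0.50). UMIs of 4 or more members were found in 18, 15 and 11 T cells on days 0, 1 and 3. Being picked by UMIs of members, such cells hold high shares of them in part by the choice. These cells held 65.2%, 45.2% and 59.1% of the *IL23R* UMIs of T cells. Of *KLRB1* they held 63.4%, 60.8% and 56.5%, and of *IL22* 46.7%, 84.4% and 51.3%. On days 7 and 14 such cells held 46.7% and 26.3% of *IL23R*, 6.604% and 27.6% of *KLRB1* and 3.02% and 6.96% of *IL22*. T cell levels of *IL23R* and *KLRB1* lay below free RNA on days 0, 1 and 3. *IL17A* was higher in T cells in 5 of 6 libraries, with the UMIs of day 1 nearly all in 1 cell, and T cells outside the B gate had none on days 0 and 21. *LTB* was lower in T than in B cells by -0.89 ± 0.25 (adjusted p = 0.0165) in 5 of 6 libraries, beside 15.3% of all genes called lower. This call was lost without the block (-1.02, adjusted p = 0.0696), without the day 3 library (-0.80, adjusted p = 0.0754) and without the day 7 library (-0.89, adjusted p = 0.0526). *TAC3* (0.56 ± 0.59), *NCR2* (0.80 ± 0.65) and *IL1R1* (1.49 ± 0.65) did not pass, with adjusted p = 0.526, 0.393 and 0.106.

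Between ages the values are a description of single libraries. A gene was called past 2-fold where 2 libraries held at least 10 of its UMIs together. From day 0 to day 1 the CD3-negative class had 3 of the 9 members higher, all cytokines, and none lower, where 9.84% of all genes were higher and 4.02% lower past 2-fold. *IL22* was 10.4 times, *IL17A* 3.84 times and *IL17F* 2.39 times as high on day 1 as on day 0. The other members were level or lower on day 1, with ratios of 0.978 for *IL23R*, 0.920 for *IL1R1*, 0.711 for *LTB*, 0.648 for *KLRB1*, 0.630 for *NCR2* and 0.621 for *TAC3*. The counting intervals of *IL23R* and *IL1R1* included 1, while those of the other 4 lay below 1. In double-positive cells the levels went from 0.880 to 10.9 for *IL22*, from 0.535 to 2.18 for *IL17A* and from 0.559 to 1.27 for *IL17F*. In the same cells *TAC3* went from 45.02 to 34.7, *KLRB1* from 10.2 to 8.16 and *NCR2* from 1.94 to 1.502. *LTB* was at 36.3 and 34.9 there, *IL1R1* at 0.738 and 0.641 and *IL23R* at 0.898 and 1.03, each with overlapping intervals. The part of the mix of cells in the ratios of the whole class was not tested. Leaving out the 5 cells with the most UMIs in each library, *IL22* went from 0.311 to 4.27, *IL17A* from 0.145 to 0.716 and *IL17F* from 0.267 to 0.471, the last under 2-fold. The myeloid list stood at 14.6 on day 0 and 32.2 on day 1 in the class, and its part in these values was not tested.

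T cells had 4 of the 9 members higher on day 1 than on day 0, the 3 cytokines above and *LTB*, and none lower, beside 3.85% of all genes higher and 13.7% lower. The epithelial list in T cells was at 9.60 on day 0 and 3.88 on day 1, and its part in these values was not tested. *LTB* went from 2.62 to 6.80 (2.59 times) while free RNA held it at 4.07 and 4.46, so that T cells lay below free RNA on day 0 and above it on day 1. A UMI of *LTB* was found in 39.6% and 69.0% of T cells on these days. *IL22* was 5.63 times, *IL17F* 15.7 times and *IL17A* 394 times as high, the last from 1 UMI on day 0 with a counting interval of 70.2 to 15593 times. The IL-17 ratios rest on the few cells described above. Free RNA of *IL22* went from 0.0137 to 0.251 between these libraries, above the T cell level of 0.159 on day 1. On day 1, 17 T cells held *IL22*, with 39.6% of its UMIs in 1 of them.

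Day 14 against day 0 in the CD3-negative class gave 2 members higher and 2 lower, beside 13.4% and 9.51% of all genes. Between the same libraries the B cell list in this class went from 2.14 to 5.01, the plasma cell list from 1.11 to 4.37 and the endothelial list from 3.98 to 0.138, and their part in these values was not tested. *IL22* was 21.9 times and *IL17A* 2.91 times as high, the latter from 36 UMIs in 4 cells. *TAC3* was 3.11-fold lower, and *IL17F* 6.35-fold lower from 2 UMIs on day 14, with a counting interval of the ratio of 0.0189 to 0.582. In double-positive cells *IL17A* went the other way, from 0.535 on day 0 to 0.374 on day 14 (6 UMIs), and *IL22* from 0.880 to 6.74. *TAC3* went from 45.02 to 14.0 and *IL17F* from 0.559 to 0.0624 (1 UMI) in these cells. The other 5 members lay within 2-fold, *KLRB1* at 1.68 times and *NCR2* at 0.647 times the day 0 level. The day 21 library had 7 CD3-negative cells, of which *IL22* was counted in 2 and *TAC3* in 1. It was past 2-fold against day 0 for *IL22* (9.96 times, 11 UMIs) and for *TAC3* (11.7-fold lower, 5 UMIs), beside 22.2% of all genes higher and 1.83% lower. A count of 0 was taken as 3 UMIs, so *NCR2*, with 427 UMIs on day 0 and none on day 21, was not called lower. The B cell list in the class went from 2.14 to 10.2 and the T cell list from 1.69 to 5.11. The myeloid list went from 14.6 to 4.09, and the part of these lists in the values was not tested. In T cells 8 members had enough UMIs for day 21 against day 0, with 1 higher and 3 lower beside 17.9% and 15.3% of all genes. *IL17F* was 4.28 times as high from 10 UMIs, 9 of them in 1 cell. *TAC3*, without a UMI in T cells on day 21, was at least 32.6-fold lower when 3 UMIs are taken in place of 0, while free RNA of *TAC3* went from 1.22 to 0.00378. The epithelial list in T cells was at 9.60 on day 0 and 0.202 on day 21 and the B cell list at 2.08 and 7.97, and their part was not tested. *IL1R1* and *NCR2* each had 1 UMI on day 21, and the counting intervals of their ratios to day 0 (0.00541 to 1.3 and 0.00619 to 1.499) included 1.

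How the members were shared among single cells was counted in the CD3-negative class after thinning each cell to 1000 UMIs, so that every cell had the same depth. Of 73 cells with *IL17A*, 45.2% (95% Clopper-Pearson interval 33.5% to 57.3%) also had *IL22*, against 12.1% of the cells without *IL17A* (10.7% to 13.5%). *IL17F* was found in 20.5% (11.98% to 31.6%) of cells with *IL17A* and in 2.19% of those without. *TAC3* was found in 91.8% of cells with *IL17A*, 95.2% of cells with *IL17F* and 80.9% of cells with *IL22*, and in 58.1%, 58.2% and 55.9% of cells without them. Without thinning, on day 14 *TAC3* was found in 48.6% of cells with *IL22* and 45.6% of those without. These shares were 97.2% and 36.6% on day 1 and 91.8% and 80.0% on day 3. Cells with *KIT* alone, with *TAC3* at 1.17 on day 0, count among the cells here, and their part in the shares was not tested. Conversely *IL22* was found in 17.9% of cells with *TAC3* (15.9% to 20.1%) and in 6.16% of cells without. *NCR2* was found in 12.1% (8.61% to 16.3%) of cells with *IL22* and 10.0% (8.75% to 11.5%) of cells without, intervals that overlap. Without thinning the shares were 56.6% (52.1% to 61.1%) and 31.4% (29.3% to 33.6%), and *NCR2* was found more often in cells with *IL22* in each of the 5 libraries up to day 14, from 35.1% against 15.8% on day 14 to 66.7% against 30.1% on day 0. The cells came from 6 libraries of different ages pooled here, so these shares are a description of the cells.

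**Figure D4:**
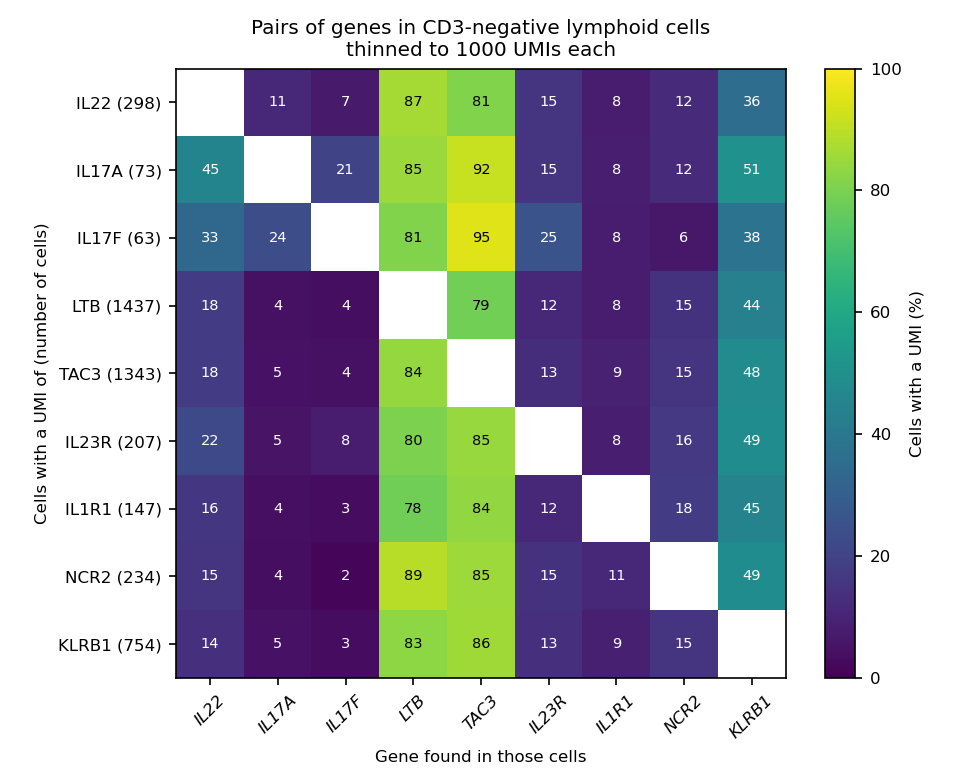
Share (%) of CD3-negative lymphoid cells of all 6 libraries, thinned to 1000 UMIs, with a UMI of the gene in the column among the cells with a UMI of the gene in the row (number of cells in brackets). *LTB* and *TAC3* are found in most cells of every row, and *IL22* in 45.2% of the 73 cells with *IL17A*.

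At full depth, 331 CD3-negative cells had a UMI of *IL17A* or *IL17F*. Of these, 42.6% had the chemokine receptor gene *CCR6*, against 28.2% of the other 1938 cells. Per 10000 UMIs, *CCR6* was at 0.804 in the former and 0.691 in the latter. No UMI of *IFNG* or *CD4* was counted in the 331 cells (interval up to 1.11%). Of the others, 0.258% had *IFNG*, a share within that interval, and 1.496% had *CD4*. The depth of the 2 groups was not matched here. Among T cells, 53 had a UMI of *IL17A* or *IL17F*, and *IL23R* was found in 22.6% of them and in 1.29% of the other 5562. In the same order the shares were 26.4% and 2.79% for *KLRB1* and 22.6% and 4.71% for *CCR6*. These shares too are without a match of depth. The *CD4* gene was found in 18.9% (9.44% to 32.0%) of the cytokine-positive T cells and *CD8B* in 1.89% (0.0478% to 10.1%), against 12.4% and 6.22% of the others, while per 10000 UMIs *CD4* was at 0.230 in the former and 0.305 in the latter. Up to day 14, 5 to 18 T cells per library had UMIs of 4 or more members, with a median of 4219 to 13433 UMIs. On day 0 these 18 cells held 56.7% of the *TAC3* and 70.6% of the *NCR2* UMIs of all 2002 T cells. These shares too follow in part from picking the cells by the members. The median of the 18 cells, 11128 UMIs, stood beside 3615 in the class.

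Genes that belong with the members were read from 8 lists. The counts below are for CD3-negative lymphoid cells against T cells in the same edgeR fit. Over all genes in it, 13.3% were higher and 11.3% lower. Of the markers tested, 7 of 9 myeloid and 4 of 4 endothelial ones were also higher (median log2 difference 3.01 and 3.21). Their part in the values of the 8 lists was not tested. The related genes were compared for the whole class, not for double-positive cells. Of 12 transcription factors of type 3 cells, 6 were higher, 2 lower and 4 did not pass. *ID2*, which innate lymphoid cells need to develop, was higher by 1.96 ± 0.42 (log2, SE) and *AHR*, a sensor of dietary and microbial compounds, by 1.5 ± 0.17, while *IKZF3* of the Ikaros family was lower by -2.25 ± 0.20. Of 9 receptors tested, 2 of the IL-18 receptor were higher (*IL18RAP* 1.96 ± 0.49, *IL18R1* 1.70 ± 0.36), 2 were lower (*IL21R* -2.03 ± 0.24, *IL6R* -1.51 ± 0.40) and 5 did not pass.

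Other cytokines of lymphoid cells were tested too. Of the 9 tested, 6 were higher in the CD3-negative class, with *CSF2* (2.52 ± 0.38), *TNF* (2.49 ± 0.38) and *IL26* (2.24 ± 0.63) among them, and *IFNG*, the cytokine of type 1 immunity, was lower by -3.86 ± 0.73. *IL21* had no UMI in the CD3-negative class and 48 in T cells. Of 12 other innate and cytotoxic genes, 6 were lower, led by *GZMA* (-4.65 ± 0.60), *GZMH* (-4.13 ± 0.54), *TBX21* (-3.10 ± 0.43) and *GZMB* (-2.75 ± 0.68), 1 was higher and 5 did not pass. Among 11 homing and surface genes tested, 6 were lower, *CD7* (-4.59 ± 0.51), *KLRG1* (-3.76 ± 0.50) and *KLRK1* (-2.86 ± 0.47) the furthest, and *CCR6*, which leads cells to lymphoid follicles, was higher by 2.24 ± 0.31.

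The ligands that act on type 3 cells are mostly products of myeloid and stromal cells. Of 6 tested, 4 were higher in the CD3-negative class, namely *KITLG* (3.25 ± 0.44), *IL1A* (2.20 ± 0.59), *IL18* (1.62 ± 0.41) and *IL1B* (1.38 ± 0.37). The *IL1B* level in this class was 1.81 on day 1 and at most 0.0550 in the other libraries, and the myeloid list was at its highest, 32.2, in the same library, where free RNA held *IL1B* at 1.27. The 4 endothelial markers tested were also all higher in this class (median log2 difference 3.21), as were 3 of 7 stromal ones, and the part of these lists in the 4 results was not tested. *IL23A*, a subunit of IL-23, had 2 UMIs in CD3-negative cells and none in T cells. Among the receptors of the members, *IL22RA2*, the soluble receptor that binds and blocks IL-22, was higher by 5.32 ± 0.84 and *IL22RA1*, the receptor chain of epithelial cells, lower by -3.18 ± 0.80, while 4 did not pass. The myeloid list moved the same way in this contrast (7 of 9 markers higher, median log2 difference 3.01), and its part in the *IL22RA2* value was not tested. The *IL22RA2* level was 0.0418, 0.195, 0.0889, 0.166 and 0.275 on days 0, 1, 3, 7 and 14. Of 9 tested genes that IL-22 and IL-17 induce in epithelium, 3 were higher, *CXCL2* (4.40 ± 0.70) and *CXCL8* (3.29 ± 0.78) among them, and 2 were lower, *LCN2* (-3.02 ± 0.57) and *REG3G* (-2.72 ± 0.51). Myeloid cells also make the chemokines *CXCL2* and *CXCL8*, and the part of the myeloid list in these values was not tested. The epithelial list was at 0.165 to 1.35 in the CD3-negative class up to day 14 and at 0.202 to 9.60 in T cells. On day 3 it was higher in the CD3-negative class (0.420 against 0.294). The gate for this class limits epithelial UMIs, and its part in these values was not tested.

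**Figure D5:**
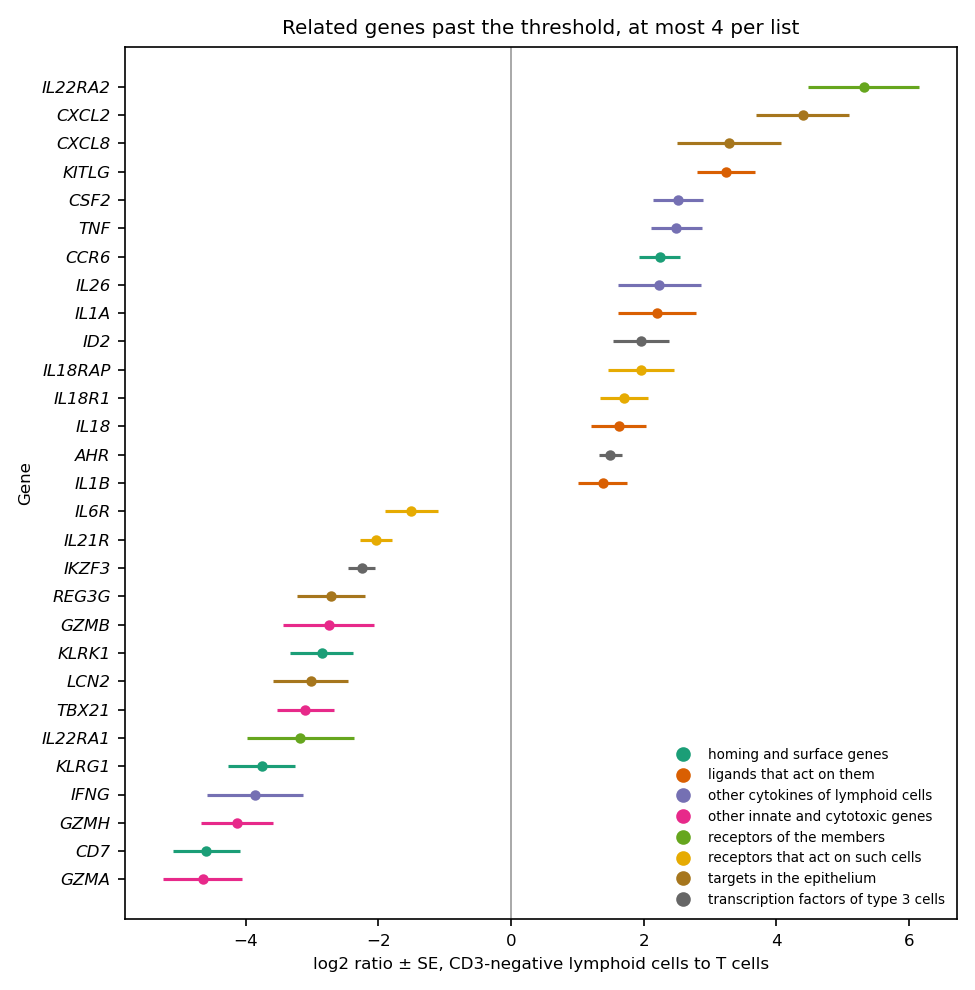
Fitted log2 difference with SE between CD3-negative lymphoid cells and T cells for related genes past the adjusted p threshold, up to 4 from each of 8 lists (colours). *IL22RA2* lies furthest to the right at 5.32 and *GZMA* furthest to the left at -4.65.

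The genes with patterns most like each member were ranked by Pearson's r of log2(CPM + 1), CPM being counts scaled to a common library size, over the 17 profiles of library and class. The r values describe profiles that share libraries and classes. *KLRB1* went closely with *TMIGD2* (r = 0.985) and *IL2RA* (0.978). *IL1R1* had *IL2RA* (0.982), *LRG1* and *TBXAS1*, and *IL23R* had *CD109* (0.982), *ADAM12* and *ATP8B4*. *NCR2* was closest to *FBXL21* (0.989), *SLC8A1* and *OTOP2*, and *TAC3* to *ADGRL2* (0.967), *SCIN* and *RASSF9*. Among the cytokines, *IL22* had *CSF2* (0.960), *BATF3* and *ERP44*, *IL17A* had *SLA* (0.914), *CMTM3* and *TIMP1*, *IL17F* had *LXN* (0.894), *ST3GAL4* and *TNFSF11*, and *LTB* had *P2RY1* (0.922), *RHBDF2* and *LOC100524786*. The closest pair of members was *IL23R* and *KLRB1* (r = 0.970).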

How the data were processed

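scRNA-seq counts of 6 libraries of piglet ileum (1 per age) were used. The authors aligned and counted reads with Cell Ranger 3.1.0, with STAR among the tools of the submitters' processing notes, against susScr11 (Sscrofa11.1), and the deposited matrices list a UMI count for each gene in each barcode, with no filter or scaling. The labels name a V3 kit. The paper's methods name another version. The labels give ileum, while the series description gives cecum. No cell annotation was used. The library totals were 77391932 to 100348769 UMIs.

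Members, lists and tests were chosen with earlier results of these data known. Cells needed 1000 UMIs and 500 genes. Doublets were kept and no caller was run. Levels carry exact Poisson and shares exact Clopper-Pearson intervals (95%, scipy 1.17.1) that cover counting error only. Classes were compared with edgeR 4.0.16 in R 4.3.3 (TMM, default filter on low counts, quasi-likelihood test, Benjamini-Hochberg over all genes, adjusted p under 0.05) on UMIs summed per library and class, leaving out sums of under 20 cells. All 3 classes were fitted together with the library as a block, since classes of a library come from the same tissue. SEs are derived from the F statistic. These p-values measure the spread over libraries of different ages. DESeq2 1.42.0 and other gates, filters and scalings were alternatives. The script was tested on simulated data. Genes named are the members, the 3 genes most like each, and from each related list at most 4 with the largest called difference between CD3-negative lymphoid and T cells, or with no UMI. A gene of the related lists, included in their counts, is not reported here. Matched by symbol, all 20648 genes were found in the RefSeq table of the same assembly, which gave positions.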

Additional observations from a re-analysis of the deposited data

Results flagged for a closer look

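In T cells against B cells, 3 members had one order in some libraries and the opposite order in others, with counting intervals that did not overlap. These differences between ages were not tested. For *IL17A* the log2 ratio of the T to the B cell level was -3.89 on day 0, from 1 UMI in T cells and 12 in B cells, and 7.36 on day 14, and T cells were higher in 5 of 6 libraries. For *LTB* the ratio was -2.14 on day 0 and 0.293 on day 14, the 1 library with T cells above B cells. For *TAC3* it was 2.04 on day 14 and -3.36 on day 7, where T cells held 2 UMIs, and its levels in both classes on these days lay below that of free RNA except for T cells on day 14 (0.109 against 0.0974).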

How the results depend on the processing

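Between CD3-negative lymphoid and T cells, 2894 genes were called in all, 1276 without the replicate block, 1706 with only these 2 classes fitted and 1834 to 2871 when each library was left out in turn, the lowest without day 1. Between T and B cells 3532 were called, and 1587 without the replicate block. *LTB* was the 1 member lower in T than in B cells, and 0 were lower without the block (-1.02, adjusted p = 0.0696). Leaving out each library gave 0 to 1, the call being lost without day 3 (-0.804, adjusted p = 0.0754) or day 7 (-0.889, adjusted p = 0.0526). *IL1R1* passed between T and B cells by DESeq2 (adjusted p = 0.0363) and without cells of overlapping classes (adjusted p = 0.0341). No member turned its direction in any fit. Of the values for single members under the alternatives, 187 of 189, 166 of 171 and 189 of 189 kept direction and call in the 3 contrasts.

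Of 108 levels in T and CD3-negative cells, those outside the main interval numbered 2 with 500 UMIs and 200 genes, 7 with the stricter cell filter, 2 with mitochondrial share under 25%, 8 with T and B gates at 3 UMIs, 21 without the 5% deepest cells, 22 with the 5 more genes excluded from the CD3-negative gate, 26 without overlapping classes, 39 with both *IL7R* and *KIT*, 44 as mean over cells, 54 after subtracting free RNA and 87 without the 5 cells richest in the gene. Of the shares of cells, 81 lay outside after thinning. On day 21 against day 0, the CD3-negative count of members higher went from 1 to 2 with either cell filter and with either stricter CD3-negative gate, and that of members lower from 1 to 2 with 500 UMIs or the mean over cells. The double-positive gate and the removal of 5 cells were added after seeing the data. The cause of these changes was not tested. Values from the 7 CD3-negative cells of day 21, and from the few cytokine-positive T cells, were imprecise.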
